A study of Homo sapiens with 13 samples.

Results

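The stretch described here ran from 39 to 44 Mb of chromosome 1 (hg38), a region of the short arm with 75 protein-coding gene starts. Its members were the called peaks whose summit fell at or after position 39000000 and before 44 Mb, and they comprised 376 of 9370 PTBP1 peaks and 94 of 7688 RUNX1 peaks, or 470 of 17058 in both lists. The stretch was selected on its number of PTBP1 peaks, so the peak counts are given as a description and were not tested. The peaks came from MOLM-13, a long-established line of acute myeloid leukemia cells of human origin, with no added treatment or genotype named for any group. The series had 13 libraries from CUT&Tag, in which an antibody steers a transposase to the bound protein, and CUT&RUN, in which a nuclease cuts there instead. PTBP1 and RUNX1 each had 2 libraries per assay, IgG had 1 CUT&Tag and 2 CUT&RUN libraries, and H3K27me3 had 2 CUT&RUN libraries. One deposited list per target was used and was taken as CUT&Tag, the assay for which peak calling is described. No list gave values per replicate, so there is no replicate spread, and all intervals are 95% Wilson intervals that cover counting error only.

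PTBP1 is an RNA-binding protein that regulates splicing through pyrimidine-rich stretches of nuclear transcripts. RUNX1 is a hematopoietic transcription factor whose Runt domain reads a short DNA motif at promoters and enhancers. A promoter peak lies where transcription starts, and a peak in an intron or between genes can mark an enhancer or another site of contact with chromatin.

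The strongest and most contrasting summits of the stretch are shown first, as 101 bases of hg38 centred on the summit and read on the forward strand. Capitals mark the RUNX motif, searched as TGTGGT or TGCGGT on both strands, which reads ACCACA or ACCGCA on the forward strand when it lies on the other one. The first sequence is that of the strongest PTBP1 summit, just upstream of CITED4, and the second that of the strongest RUNX1 summit in an intron. In the third, in NFYC, the summits of both lists fell on the same base, and the fourth lies in SLC2A1, the glucose transporter gene that the study follows. The last pair are the strongest summits called for PTBP1 alone and for RUNX1 alone. No motif was found in the CITED4 window or in that of the PTBP1-only summit.
CITED4 upstream, chr1:40862376-40862476: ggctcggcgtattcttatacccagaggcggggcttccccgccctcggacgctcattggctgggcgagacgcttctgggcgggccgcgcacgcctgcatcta
ST3GAL3 intron 4, chr1:43834711-43834811: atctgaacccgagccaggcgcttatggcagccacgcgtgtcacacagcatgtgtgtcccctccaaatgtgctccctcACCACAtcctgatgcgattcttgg
NFYC intron 1, chr1:40703508-40703608: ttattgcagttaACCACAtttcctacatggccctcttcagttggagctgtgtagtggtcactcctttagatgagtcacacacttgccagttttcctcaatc
SLC2A1 intron 2, chr1:42931954-42932054: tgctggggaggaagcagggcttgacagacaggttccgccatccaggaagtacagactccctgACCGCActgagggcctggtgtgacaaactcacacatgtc
ENSG00000237899 intron 1, chr1:40686219-40686319: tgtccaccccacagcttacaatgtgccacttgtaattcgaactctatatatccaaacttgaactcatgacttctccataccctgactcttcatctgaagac
HIVEP3 upstream part, chr1:41955573-41955673: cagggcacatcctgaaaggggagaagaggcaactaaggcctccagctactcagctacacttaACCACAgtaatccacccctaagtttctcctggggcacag

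Each of the 1 Mb windows on either side, listed below, held fewer PTBP1 peaks than any window of that size inside the stretch. The last PTBP1 peak before it lay at the start of AKIRIN1, with its summit 8831 bases short of the lower bound and 11.6-fold enriched over background. The first peak inside came 491677 bases after the bound, in an exon of BMP8A (10.5-fold). MACF1, a 405862-base gene for a protein that links microtubules to actin, lay in between and held no peak of either list. At the far end, the last PTBP1 peak inside lay in an exon of CCDC24 (10.5-fold) and the first one outside at SLC6A9 (12.8-fold), 30208 bases past the bound. The 1 Mb windows before the stretch held 0, 7, 10, 5 and 4 PTBP1 peaks, and those after it 16, 11, 7, 3 and 0.

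Within the bounds, the 5 windows of 1 Mb held 73, 137, 62, 34 and 70 PTBP1 peaks, and 13, 48, 10, 12 and 11 RUNX1 peaks. The window from 40 to 41 Mb was the fullest for both targets, although it held fewer coding gene starts (16) than the windows from 42 to 43 Mb (19) and from 43 to 44 Mb (22). At 100 kb, 10 of 50 windows had no PTBP1 peak and 19 had at least 10, up to 30 in a single window. No window reached 10 RUNX1 peaks, and the highest had 9. From 39.4 to 41.8 Mb there were 271 PTBP1 peaks, and from 41.8 to 42.6 Mb, along the 5-prime part of HIVEP3 and the genes beyond it, there were 5.

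**Figure D1:**
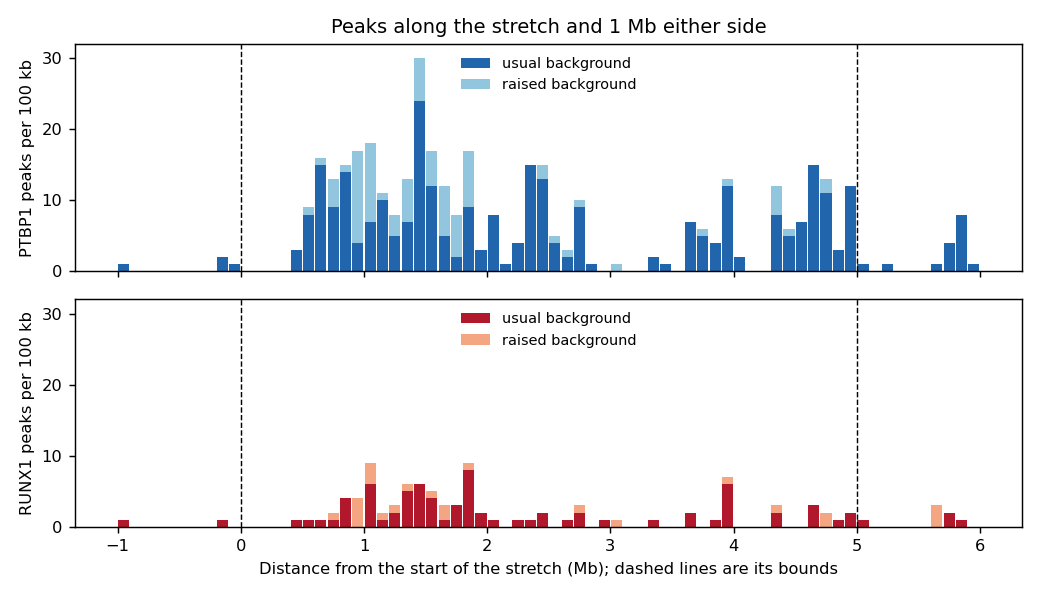
Number of called peaks per 100 kb (vertical axis) against the distance from the start of the stretch in Mb (horizontal axis), for PTBP1 above and RUNX1 below, with paler bars for peaks on a raised background and dashed lines at the bounds. PTBP1 peaks reach 30 per window and fall to few on either side, whereas RUNX1 peaks reach 9.

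Neighbouring PTBP1 summits stood a median of 3875 bases apart in the stretch and 54132 bases apart on the rest of chromosome 1. For RUNX1 the medians were 18933 and 92017 bases. PTBP1 peaks covered 8.76% of the bases of the stretch and 0.258% of the other bases of the main chromosomes, and RUNX1 peaks covered 1.89% and 0.191%. These values follow from the choice of the stretch and add nothing to it.

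The stretch was ranked among windows of 5 Mb placed in steps of 1 Mb, from which the 8 windows that overlap it in part were left out. Among the 2998 windows, itself included, it was rank 1 by PTBP1 peaks and rank 3 by RUNX1 peaks. The next windows by PTBP1 peaks that did not overlap it were chromosome 19 from 0 to 5 Mb, with 341 PTBP1 peaks and 162 coding gene starts, and chromosome 17 from 78 to 83 Mb, with 301 PTBP1 peaks and 99 coding gene starts. The stretch thus held 5.01 PTBP1 peaks per coding gene start, against 2.10 and 3.04 in those windows. Only 1 of the 53 such windows with at least 100 PTBP1 peaks had more per gene, at 6.55.

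Most PTBP1 peaks of the stretch lay away from gene starts. A peak was placed at a transcription start site (TSS) when it came within 1000 bases of the first base of any gene in the annotation. This was so for 75 of 376 PTBP1 peaks, 19.9% (16.2 to 24.3), against 58.1% (57.1 to 59.2) of the PTBP1 peaks elsewhere and 56.6% of the whole list. For RUNX1 it was 36 of 94, 38.3% (29.1 to 48.4), against 53.9% (52.8 to 55.0) elsewhere and 53.7% of the whole list. Sequence within 1000 bases of a TSS made up 6.10% of the stretch. The PTBP1 share was the second lowest among the 53 windows, whose other members ranged from 14.2% to 68.9%, and the lowest of the overlapping windows left out had 19.6%. With the start of any annotated transcript in place of the gene's, it was 29.8%, and with the gene's first base required inside the peak it was 11.7%.

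By the position of the summit, introns of coding genes were the largest class. They held 166 PTBP1 summits, 44.1% (39.2 to 49.2), against 30.1% elsewhere and 30.7% of the whole list, and they made up 53.8% of the bases of the stretch. RUNX1 summits were in such introns in 40 cases, 42.6% (33.0 to 52.6), against 29.8% elsewhere and 30.0% of the whole list. Among PTBP1 peaks away from a TSS only, the shares in such introns were close, 48.2% in the stretch and 47.3% elsewhere. Of the intronic PTBP1 summits, 66 were in the first intron. Without the window from 40 to 41 Mb, the share of PTBP1 summits in introns was 49.4%.

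Exons held few summits, and those of coding genes made up 5.24% of the bases of the stretch. The canonical exons of coding genes had 25 PTBP1 summits, 6.65% (4.54 to 9.63), against 16.4% elsewhere, with 10 in coding sequence, 5 in 5-prime UTRs and 10 in 3-prime UTRs. The 5-prime UTR share was 1.33% (0.569 to 3.07) in the stretch and 7.66% elsewhere, and the 3-prime UTR share was 2.66% and 2.45%. RUNX1 had 10 summits in coding-gene exons, 10.6% against 12.9% elsewhere, of which 5 were in 5-prime UTRs. A further 13 PTBP1 summits, 3.46% against 17.2% elsewhere, and 9 RUNX1 summits, 9.57% against 18.4%, were inside a coding gene but outside its canonical transcript. Noncoding genes alone held 45 PTBP1 summits, 11.97% against 8.34% elsewhere, and 7 RUNX1 summits, 7.45% against 10.3%.

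**Figure D2:**
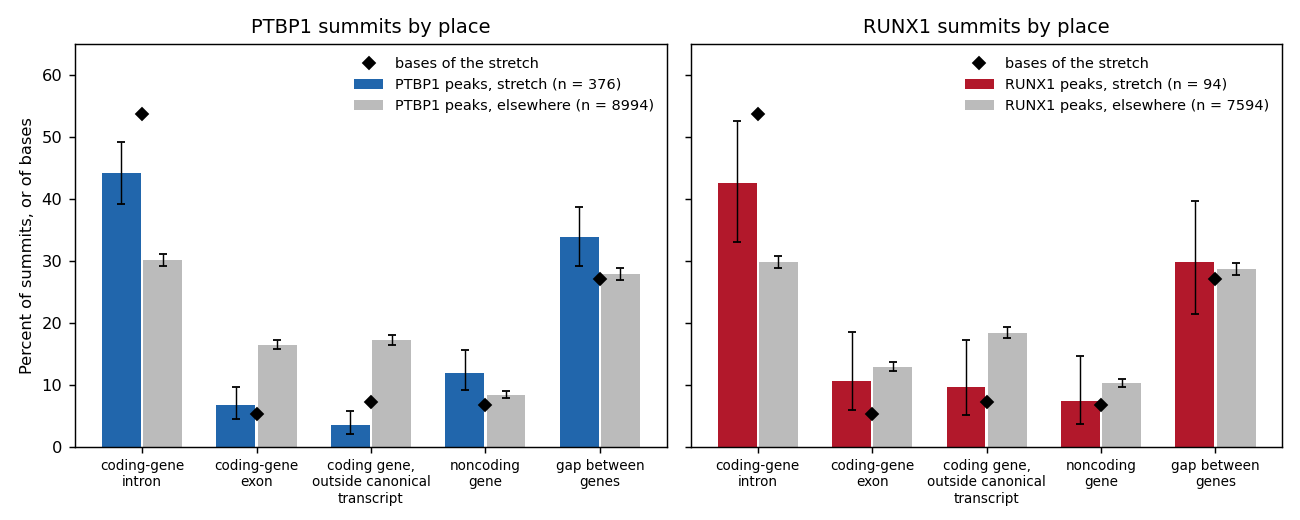
Percent of PTBP1 (left) and RUNX1 (right) summits in each kind of sequence, in the stretch (coloured bars) and elsewhere in the genome (grey bars), with 95% Wilson intervals. Diamonds give the percent of the bases of the stretch in that class, which reaches 53.8% for introns of coding genes and 27.1% for gaps between genes.

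Gaps between genes of any type held 127 PTBP1 summits, 33.8% (29.2 to 38.7), against 27.9% elsewhere and 28.1% of the whole list. RUNX1 had 28 gap summits, 29.8% (21.5 to 39.7), against 28.6% elsewhere and 28.7% of the whole list. Gaps made up 27.1% of the stretch. Many gap summits elsewhere sit just upstream of a gene. Gap summits away from a TSS made up 26.1% (98 summits) of all PTBP1 peaks of the stretch and 9.25% of those elsewhere. Among PTBP1 peaks away from a TSS only, the gap shares were 32.6% in the stretch and 22.1% elsewhere. The 98 gap summits of the stretch away from a TSS lay a median of 6063 bases from the nearest gene. When only coding genes bounded the gaps, 45.7% of the PTBP1 summits of the stretch fell between genes.

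Of the 87 gaps that reached into the stretch, 40 held a PTBP1 summit and 21 held PTBP1 but no RUNX1 summit. Gaps were called wide above 42633 bases, a cut taken from the 5 widest gaps with a PTBP1 summit. Among the wide gaps, 4 had no summit of either list, of 88850, 80448, 68191 (upstream of PTPRF) and 46679 bases (upstream of MACF1). Narrower gaps were empty too, such as that of 42415 bases upstream of RIMKLA. The widest gap with a PTBP1 summit also had the most. It ran for 83346 bases from the 3-prime end of FOXO6, a forkhead transcription factor, to the 5S pseudogene RNA5SP45, and held 17 PTBP1 summits, none at a TSS. Their fold enrichments were at most 15.7 with 26 fragments, and all stood on the usual background. RUNX1 had 2 summits in this gap, both under the strongest PTBP1 peak.

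The gap between MYCL, a MYC-family factor, and a Y_RNA copy (42633 bases) had 8 PTBP1 and 2 RUNX1 summits and included a pair of strong peaks. At that pair, 32258 bases from MYCL, PTBP1 reached 45.3-fold with 313 fragments and RUNX1 98.4-fold with 365 fragments, both on a raised background. The gap between PABPC4 and HEYL (46644 bases) held 7 PTBP1 and no RUNX1 summits, with fold enrichments of at most 12.8. That between LINC02811 and TRIT1 (20649 bases) had 7 PTBP1 summits, led by one of 37.8-fold, and 1 RUNX1 summit. Between MFSD2A and CAP1 (70264 bases) there were 8 and 2, and between the lncRNA genes ENSG00000229528 and ENSG00000228940 (61433 bases) 6 and 3.

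PTBP1 summits were spread unevenly over the genes. Of the 75 coding genes that start in the stretch, 47 (62.7%) had a PTBP1 peak at the TSS, 10 had summits in the body only and 18 had none. RUNX1 was at the TSS of 32 (42.7%), in the body only of 7, and 36 had no RUNX1 peak. Elsewhere in the genome, PTBP1 was at the TSS of 26.2% and RUNX1 of 21.2% of 19958 coding genes. Both were at the TSS of 31 genes, PTBP1 alone at 16, RUNX1 alone at TMCO2 and neither at 27. The genes with PTBP1 alone at the TSS included PABPC4, PPIE, TRIT1, ZFP69, P3H1, DPH2 and B4GALT2. For PPIE only the edge of the peak came that near, and its summit lay outside the gene.

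Of the 75 genes, 18 held at least 5 PTBP1 summits, in the body or within 1000 bases of the start. The count was highest for ENSG00000284989, at 28, a gene model that begins with KDM4A and runs through ST3GAL3, so that it shares the peaks of both. ST3GAL3, which encodes a sialyltransferase, and HIVEP3, a large zinc-finger factor, each had 19. Others below them were SMAP2 with 14, PTPRF with 12, SLC2A1 with 10, KDM4A with 9, CAP1 and PPIE with 8, and RLF and FOXO6 with 7. RUNX1 summits in the same genes numbered 6 in HIVEP3, SMAP2 and SLC2A1, and 3 or fewer in ST3GAL3, PTPRF, KDM4A, CAP1, RLF and FOXO6. PPIE had none.

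SLC2A1 (chr1:42925353-42958893, minus strand) encodes the glucose transporter GLUT1. Its start had the strongest PTBP1 peak of the gene, 33.1-fold with 56 fragments, and the strongest of its RUNX1 peaks by fold, 36.1-fold with 47 fragments, with summits 242 bases apart. The other 9 PTBP1 summits were in its first intron (6) and second intron (3) and ran from 3.40-fold to 20.3-fold. Intron 2 held 4 of the 6 RUNX1 summits. At the one whose sequence is shown above, RUNX1 was 27.9-fold enriched with 254 fragments, and PTBP1 3.40-fold with 63 fragments, 178 bases away, and both stood on a raised background. All 6 RUNX1 peaks of SLC2A1 overlapped a PTBP1 peak, while 5 of its 10 PTBP1 peaks overlapped none.

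HIVEP3 (chr1:41506365-42035925, minus strand) had 11 of its PTBP1 summits in the first intron, 3 in the second and 1 each in introns 5 and 7, with a further summit in each of exons 8 and 9. Most were weak, and the highest was 20.9-fold with 35 fragments in intron 1, where RUNX1 was 21.8-fold with 28 fragments. Its own start had a PTBP1 peak of 8.94-fold and a RUNX1 peak of 8.87-fold, both on a raised background. The strongest RUNX1 peak of the stretch with no PTBP1 peak also lay in HIVEP3, at 15.8-fold with 20 fragments, and its motif begins 12 bases after the summit.

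ST3GAL3 (chr1:43705824-43931165, plus strand) held 18 PTBP1 summits in introns 1 to 5 and 9 to 11. Its strongest peak pair was in intron 4, where RUNX1 was 113.5-fold with 150 fragments and PTBP1 31.4-fold with 53 fragments, 147 bases apart. A pair in intron 2 reached 34.3-fold for RUNX1 and 12.4-fold for PTBP1. Another pair lay near its 5-prime end, also at the start of the antisense gene KDM4A-AS1, with 30.9-fold for RUNX1 in exon 1 and 24.5-fold for PTBP1, 114 bases away. The pair in intron 2 and this one stood on a raised background. The other 16 PTBP1 summits in its introns overlapped no RUNX1 peak and were at most 19.2-fold.

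KDM4A, a histone lysine demethylase, had its strongest peaks at its start. There PTBP1 was 180.2-fold with 309 fragments and RUNX1 135.3-fold with 179 fragments, 5 bases apart and 27 and 22 bases from the gene's first base. The other 8 PTBP1 summits of the gene were in introns 4 to 16, at 7.56-fold to 13.4-fold, and no RUNX1 peak overlapped them. PTPRF, a receptor tyrosine phosphatase, had no peak at its start. Its 12 PTBP1 summits ranged from 7.56-fold to 13.4-fold, and 1 of them overlapped a RUNX1 peak, in exon 26.

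SMAP2, an ARF GTPase-activating protein, carried 14 PTBP1 and 6 RUNX1 summits. The strongest pair, 119.8-fold for PTBP1 and 112.8-fold for RUNX1 with summits 1 base apart, lay 37 and 38 bases from the start of the canonical transcript. It was not counted at a TSS because the annotated gene begins further upstream. A second RUNX1 peak of 71.4-fold was in the 3-prime UTR, beside a PTBP1 peak of 26.7-fold. In NFYC, a subunit of the CCAAT-binding factor NF-Y, the widest PTBP1 peak of the stretch ran for 12731 bases of intron 1 and took in 3 RUNX1 peaks. Both lists had their summit on the same base there, at 43.6-fold for PTBP1 and 77.4-fold for RUNX1.

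In CAP1, which regulates actin, all 8 PTBP1 peaks stood on a raised background. Other genes shared this, among them MFSD2A with all 4 of its PTBP1 peaks and ELOVL1 and RIMS3 with all 3. At the start of CAP1, PTBP1 had 545 fragments against a background of 118.7, which made it 4.56-fold, and RUNX1 had 1041 fragments against 54.4, which made it 18.8-fold. In PTPRF, KDM4A and FOXO6 no PTBP1 peak had a raised background.

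The genes of the stretch were also read by role, in lists written with earlier results of these data known. Each count stands beside the share over all 75 coding genes of the stretch, 62.7% with PTBP1 and 42.7% with RUNX1 at the TSS. Of 15 transcription factor and chromatin genes, 13 had PTBP1 and 12 had RUNX1 at the TSS, the exceptions for PTBP1 being FOXO6, with summits in its first intron only, and ZNF691, with none. CITED4, a cofactor of CBP and p300, had the strongest peak of each list within the stretch. These were 186.0-fold with 319 fragments for PTBP1 and 164.7-fold with 218 fragments for RUNX1. The highest elsewhere were 227.3-fold for PTBP1 and 668.4-fold for RUNX1. HEYL, a Notch-responsive repressor, reached 52.9-fold and 35.3-fold, FOXJ3 30.2-fold and 21.8-fold, and MYCL 14.6-fold and 14.5-fold on a raised background. At ZFP69B the order was the reverse, with 35.5-fold for PTBP1 and 103.8-fold for RUNX1.

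Of 6 genes for RNA processing, translation and ribosome assembly, 5 had PTBP1 at the TSS and 2 had RUNX1, against 62.7% and 42.7% of all coding genes of the stretch. YBX1, a Y-box protein that binds DNA and RNA, reached 104.6-fold for PTBP1 and 49.6-fold for RUNX1, and PPIH, a spliceosomal cyclophilin, 29.1-fold and 18.8-fold. PABPC4, PPIE and TRIT1 had PTBP1 alone at the TSS, and EBNA1BP2, a ribosome assembly factor, had no peak of either list. Of 12 genes for metabolism and transport, 7 had PTBP1 and 6 RUNX1 at the TSS, both near the shares over all coding genes of the stretch. ZMPSTE24, which processes prelamin A, reached 160.5-fold and 58.6-fold, CTPS1, which makes CTP, 127.9-fold and 66.9-fold, and PPT1, a lysosomal thioesterase, 36.6-fold and 82.7-fold at their starts. OXCT2, RIMKLA and PPCS had no PTBP1 peak.

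Of 5 blood and vascular receptor and ligand genes, ERMAP alone had both targets at the TSS, 63.9-fold for PTBP1 and 77.4-fold for RUNX1, at a start it shares with SVBP. TIE1, an endothelial receptor kinase, had 2 PTBP1 summits of at most 9.88-fold in its body, and EDN2 had no peak. Of 6 cytoskeleton, cell cycle and cilia genes, CAP1 and SVBP had both at the TSS, CDC20 had a single PTBP1 peak of 5.19-fold, and MACF1, CCDC30 and CFAP57 had none.

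Nearly all RUNX1 peaks of the stretch overlapped a PTBP1 peak, but most PTBP1 peaks stood alone. By an overlap of at least 1 base, 88 of 94 RUNX1 peaks, 93.6% (86.8 to 97.0), met a PTBP1 peak, against 59.8% elsewhere and 60.2% of the whole list. In the other direction, 76 of 376 PTBP1 peaks, 20.2% (16.5 to 24.6), met a RUNX1 peak, against 50.4% elsewhere and 49.2% of the whole list. The 2 shares are tied to the peak counts, since the stretch had 4 PTBP1 peaks per RUNX1 peak, the fifth highest ratio among the 53 windows (up to 4.02 in the overlapping windows left out). The chromosome 19 window had 29.9% of PTBP1 and 92.3% of RUNX1 peaks overlapping, and the chromosome 17 window 19.3% and 86.8%. With summits at most 200 bases apart required, the shares of the stretch were 16.0% for PTBP1 and 63.8% for RUNX1.

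The overlapping PTBP1 peaks were taller and wider, in the stretch as elsewhere. Their median fold enrichment was 18.9 with a median width of 1808.5 bases (n = 76), against 9.30 and 606 bases for those without a RUNX1 peak (n = 300). Elsewhere the medians were 16.9-fold and 821 bases with a RUNX1 peak, and 9.88-fold and 514 bases without one. A wider peak also meets an overlap of 1 base more readily, so width is not independent of the overlap rule. Among the 300 PTBP1 peaks of the stretch without a RUNX1 peak, the strongest was 33.1-fold with 56 fragments, in the lncRNA gene ENSG00000237899. Over all members, the median fold enrichment was 9.88 for PTBP1, against 12.2 elsewhere, and 13.2 for RUNX1, against 15.0 elsewhere. Median fragments at the summit were 20 for PTBP1 and 23 for RUNX1, against 21 and 20 elsewhere.

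The PTBP1-only summits were a median of 10749.5 bases from the nearest RUNX1 summit, against 23719 bases for the PTBP1-only summits of the rest of chromosome 1. This distance is not independent of the spacing of RUNX1 summits, which had medians of 18933 and 92017 bases. Of the RUNX1 peaks, 6 overlapped no PTBP1 peak. They lay in HIVEP3, SMAP2 and BMP8A, at the start of TMCO2 and in 2 gaps, and ranged from 4.65-fold to 15.8-fold.

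**Figure D3:**
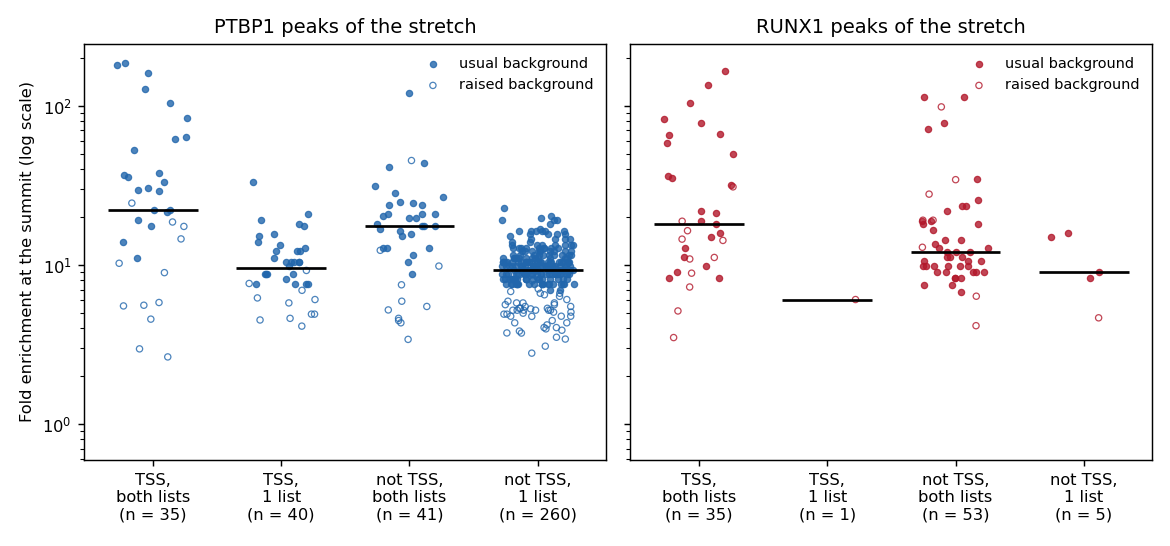
Fold enrichment at the summit (vertical axis, log scale) of each PTBP1 (left) and RUNX1 (right) peak of the stretch, split by whether it lies at a TSS and whether it overlaps a peak of the other list. Lines are medians, open points stand on a raised background, and the 260 PTBP1 peaks away from a TSS with no RUNX1 peak form the largest and one of the weakest groups.

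The fold enrichment is a ratio, so its background was examined as well. Its usual level was 0.720 fragments for PTBP1 and 0.330 for RUNX1, and a peak was counted as raised when its background was over 1.5 times that. In the stretch 88 of 376 PTBP1 peaks, 23.4% (19.4 to 27.9), were raised, against 4.08% elsewhere and 4.86% of the whole list. For RUNX1 there were 21 of 94, 22.3% (15.1 to 31.8), against 4.92% elsewhere and 5.14% of the whole list. The stretch held 4.01% of all PTBP1 peaks but 19.3% of those on a raised background. Of the 88, 59 had a background of 5.93 fragments, and the highest was 118.7.

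Raised PTBP1 peaks were most frequent in the first 2 Mb. Their share was 27.4% from 39 to 40 Mb and 38.7% from 40 to 41 Mb, and from 8.06% to 10.0% in the other windows. For RUNX1 the shares of the 5 windows in order were 38.5%, 20.8%, 10.0%, 16.7% and 27.3%. In 26 pairs, PTBP1 and RUNX1 summits were at most 50 bases apart. Of these, 10 were raised in both lists, 16 in neither and 0 in 1 list only. The most common raised background, 5.93 fragments for PTBP1 and 2.72 for RUNX1, stood to the usual level in the same proportion in both lists. Whether both lists share 1 control was not tested, so the pairs cannot tell whether the targets agree. Raised PTBP1 peaks had a median of 41 fragments and 5.32-fold enrichment, against 17 fragments and 10.5-fold for the others. Elsewhere the medians were 48 fragments and 6.78-fold, against 20 fragments and 12.2-fold. These differences are tied to the definition, since the fold has the background as its divisor and a higher background needs more fragments for a call. On the usual background alone, the stretch kept 288 PTBP1 peaks and was rank 2, after chromosome 19 from 0 to 5 Mb with 330, and it kept 73 RUNX1 peaks and was rank 11. The part of the background in the density of the stretch was not tested further.

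The GC content at the summits was lower than in the other peak-rich windows. The median GC content within 100 bases of a PTBP1 summit was 53.2%, against 65.2% elsewhere, and for RUNX1 summits it was 55.7% against 61.7%. The stretch itself was 45.3% G or C. Among the 53 windows it had the lowest median GC content, where the others ranged from 59.95% to 68.2%, the lowest median PTBP1 fold enrichment, and the highest share of raised peaks, where the next was 16.8%. Of the overlapping windows left out, 7 had at least 100 PTBP1 peaks, with median GC contents from 51.7% to 56.2% and raised shares from 8.29% to 32.3%, so that some were more extreme than the stretch. The windows on chromosomes 19 and 17 had median GC contents of 65.7% and 64.7% and raised shares of 3.23% and 4.65%. These ranks describe the peak lists, and no test was made of them.

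**Figure D4:**
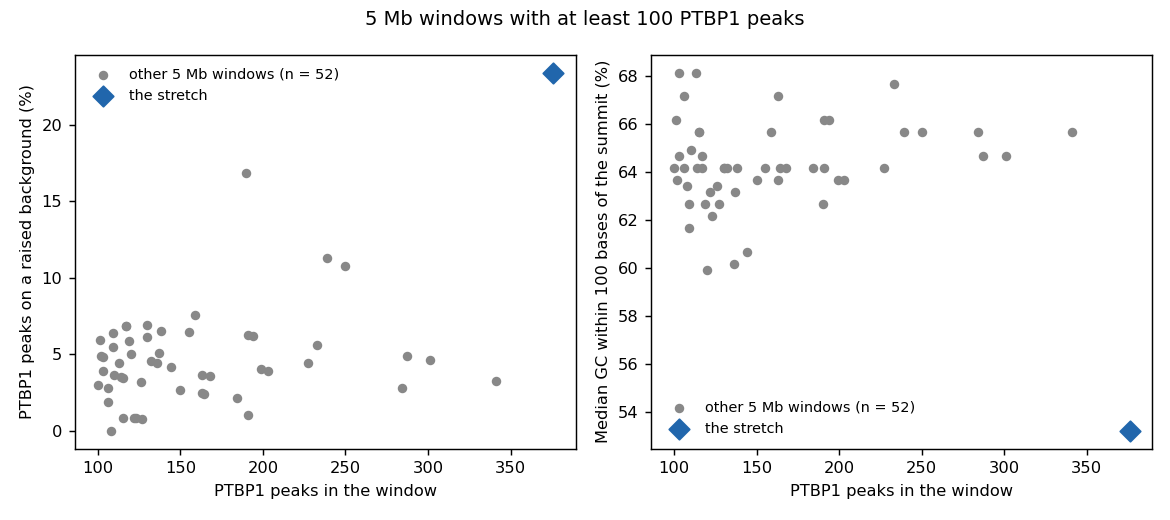
The 53 windows of 5 Mb with at least 100 PTBP1 peaks, by their number of PTBP1 peaks (horizontal axes), the share of those on a raised background (left) and the median GC content at the summit (right). Windows that overlap the stretch in part are left out, the others may overlap each other, and among those shown the stretch (diamond) is highest at left with 23.4% and lowest at right with 53.2%.

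The motif at the summit was the 1 measure that was tested, as sequence did not directly enter the choice of the stretch. The share of peaks at a TSS was tied to that choice, and motif shares differed between peaks at and away from a TSS. The motif comparison was therefore not free of the choice. A RUNX motif within 50 bases was found at 44 of 376 PTBP1 summits of the stretch (11.7%) and at 8.67% of those elsewhere, with 8.79% in the whole list. The difference of 3.03 points did not pass the threshold (odds ratio 1.40, p = 0.0503 by Fisher's exact test, two-sided, Benjamini-Hochberg adjusted p = 0.101 over both lists). For RUNX1, 18 of 94 summits had the motif (19.1%), against 24.2% elsewhere and 24.2% of the whole list (odds ratio 0.741, exact p = 0.277, adjusted p = 0.277). Among RUNX1 peaks away from a TSS the shares were 22.4% and 35.8%, a difference of -13.4 points that did not pass the threshold (exact p = 0.0376, adjusted p = 0.0753). Among PTBP1 peaks at a TSS the shares were 20.0% (15 of 75) in the stretch and 7.02% elsewhere, and this difference was not tested. The PTBP1 comparison depended on the setting. Its adjusted exact p fell to 0.00318 with TGTGGT alone, 0.0113 within 100 bases and 0.0355 for peaks with a −log10 q of at least 10, while among peaks away from a TSS the difference reversed, to -1.34 points (9.63% against 11.0%, adjusted p = 0.563). In flanks 500 bases to one side, the motif occurred at 10.9% of PTBP1 peaks of the stretch and 8.04% of those elsewhere, a difference close to that at the summits. For RUNX1 the flanks had it in 6.38% and 8.01%. Neighbouring peaks are not independent, so these p-values describe the lists and not variation between cultures. No conclusion about the stretch is drawn from them.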

How the data were processed

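Peak lists for PTBP1 and RUNX1 were used. Per the study's methods the authors mapped paired reads to hg38 with Bowtie2, kept a mapping quality above 30, dropped duplicates and ran MACS3 with a q-value limit of 1e-07. The submitters' processing notes also name bedtools 2.30.0. Whether replicates were pooled is not stated. For each peak the deposited lists give the fold enrichment, a ratio of pileup to background with 1 added to each, and −log10 p and q values. A whole fragment pileup and a background were solved from the fold and −log10 p, with a largest difference of 0.00134. Library depth was not used here, and the pileups, from 8 fragments upward, limit the precision. Every row fitted within the hg38 length of its chromosome.

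Genes, canonical transcripts and TSSs came from GENCODE version 44. A summit was placed in coding-gene exons first, then introns, then noncoding genes, then gaps. Shares have 95% Wilson intervals, and the motif shares were compared with two-sided Fisher's exact tests. Because neighbouring peaks are not independent and density chose the stretch, other comparisons are descriptive, and the motif tests describe the lists only. Named were the 12 coding genes with most PTBP1 summits, SLC2A1, the widest gaps with a PTBP1 summit and the fullest gaps (5 each), the 5 strongest peaks per list, the strongest peak called in 1 list only, and the genes of the role lists. Some genes that the rule names are not reported here. The members, lists and rule were chosen with earlier results of these data known. Other single genes and peaks, such as TMCO2, were named after their values were seen. Alternatives covered the significance threshold, the background, the overlap, the TSS, gap and exon rules, the motif and its window, and the omission of the fullest 1 Mb window. The procedures were tested on simulated data. Scripts ran in Python 3.11.15 (scipy 1.17.1, numpy 2.4.6, matplotlib 3.10.9, pandas 2.3.3).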

Additional observations from a re-analysis of the deposited data

How the results depend on the processing

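Of 52 alternatives over 12 results, 42 left the value within its interval, within 1.5 times the count or on the same side of the threshold. The PTBP1 share at a TSS moved to 11.7% when the gene's first base had to lie in the peak and to 29.8% with the start of any transcript. With coding genes alone as bounds, 45.7% of PTBP1 summits fell in gaps, and without the window from 40 to 41 Mb, 49.4% fell in coding-gene introns. With summits at most 200 bases apart, 16.0% of PTBP1 and 63.8% of RUNX1 peaks met the other target. The motif difference at PTBP1 summits passed the threshold with TGTGGT alone (4.16 points), within 100 bases (5.54 points) and at a −log10 q of at least 10 (3.84 points), and it reversed among peaks away from a TSS (-1.34 points). The cause was not tested. No paired analysis was possible because the peak lists carry no replicate. With 1 list per target, variation between libraries could not be measured, and a weak site missing from a list may lie below the calling threshold.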
